A study of Mus musculus with 14 samples.

Results

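Iron storage, iron export and heme breakdown were examined through 9 genes in CD11b+ microglia/macrophages, a small part of the 33939 genes measured. The genes were listed by symbol: the ferritin subunits *Fth1* and *Ftl1*, the exporter *Slc40a1*, the heme oxygenase *Hmox1*, the transferrin receptor *Tfrc*, the metal transporters *Slc11a1* and *Slc11a2*, the reductase *Steap3* and the regulator *Ireb2*. Each of the 9 matched 1 gene of the table, and all passed the filter on low values in every comparison.

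The cells came from C57BL/6 mice of 8 to 12 weeks, all of them male, at 3 days after controlled cortical impact, a model of traumatic brain injury (TBI). The contralateral, non-lesioned (CL) and the ipsilateral, lesioned (IL) hemispheres were dissociated, and CD11b+ cells were captured on magnetic beads. Ctrl mice were Cx3cr1-CreER+/-, and conditional knockout (cKO) mice were Cx3cr1-CreER+/- with a further gene floxed on both alleles. Both genotypes received tamoxifen, so both carry a Cre driven by the *Cx3cr1* promoter, which is active in microglia and in other mononuclear phagocytes, and a waiting period let circulating *Cx3cr1*+ cells be replaced before injury. The Ctrl mice gave 4 CL and 4 IL libraries and the cKO mice 3 of each, under 8 mouse numbers, of which 6 stand on libraries of both hemispheres. Numbers 784 (IL) and 788 (CL) of cKO stand on 1 library each, and whether they are separate mice was not settled. Naïve or sham mice were not analysed here, so the CL hemisphere of an injured brain is the reference for injury.

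Macrophages take up iron bound to transferrin through the transferrin receptor and recover it from heme when they clear red blood cells, with heme oxygenase opening the heme ring. Iron that is not used is stored inside ferritin, a shell of heavy and light chains, or leaves the cell through ferroportin, the product of *Slc40a1*. Iron regulatory proteins, among them the product of *Ireb2*, bind hairpins in messenger RNA when iron is scarce, which lowers translation from hairpins in a 5′ untranslated region (UTR) and protects messages with hairpins in the 3′ UTR. RNA-seq reads only the message level, not this control of translation.

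These hairpins, called iron-responsive elements, are shown because some of the members for storage, export and uptake carry them. Transcripts of GENCODE M21 (GRCm38) were searched on the sense strand for a C, then 5 bases, then the loop CAGTGN, then 5 bases that pair with the 5 before the loop, G with T included. The motif was found in 31 of 20916 genes with a 5′ UTR (0.148%) and in 129 of 21045 with a 3′ UTR (0.613%). Among the members, *Fth1*, *Ftl1* and *Slc40a1* held it in the 5′ UTR and *Tfrc* held it 4 times in the 3′ UTR. Each site is printed with 29 bases in the sense of the transcript, and the capitals mark the loop.
Fth1, 5′ UTR, chr19:9982732-9982760, plus strand: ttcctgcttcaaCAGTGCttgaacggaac
Ftl1, 5′ UTR, chr7:45459779-45459807, minus strand: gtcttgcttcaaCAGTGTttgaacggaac
Slc40a1, 5′ UTR, chr1:45925465-45925493, minus strand: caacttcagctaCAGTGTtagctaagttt
Tfrc, 3′ UTR, chr16:32631219-32631247, plus strand: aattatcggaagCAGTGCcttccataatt
Tfrc, 3′ UTR, chr16:32631598-32631626, plus strand: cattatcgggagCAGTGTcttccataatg
Tfrc, 3′ UTR, chr16:32631663-32631691, plus strand: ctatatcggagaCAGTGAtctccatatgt
Tfrc, 3′ UTR, chr16:32631710-32631738, plus strand: aattatcgggaaCAGTGTttcccataatt
The other 5 members had no match to these letters in an annotated UTR, which says nothing of other forms of the hairpin.

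The authors deposited values per 1e+06 assigned reads (CPM), and the reads behind a library, taken from the size of a single read in its values, ranged from 12.2 to 41.6 M with a median of 34.2 M, where 1 M is 1e+06 reads. The shallowest was that of Ctrl mouse 3546 in IL, which also stood apart from its group in several of the genes below. Genes were compared with limma on scaled log2(CPM + 1) values, and calls required both an adjusted p of no more than 0.05 and a change of 1.2-fold or more. The log2 fold changes are given with their standard error (SE) on that scale, and levels are given as CPM, with mean ± SD for groups. Ratios within mice and the overlap of groups were read from CPM without scaling. With 3 or 4 libraries a group, the p-values measure the spread between these libraries. The main comparisons of hemispheres did not use the pairing of libraries by mouse, and fits that do are given further on.

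Relative to transcript length, ferritin led the members in all 4 groups. In Ctrl CL, the level per kb of annotated exon was 2323 ± 497 CPM for *Ftl1* and 692 ± 106 for *Fth1* (SD, n = 4), followed by *Slc11a1* with 83.0 ± 8.00 and *Hmox1* with 71.9 ± 29.4, whose ranges overlapped. *Slc40a1* came next with 36.6 ± 4.36, then *Slc11a2* with 5.95 ± 0.488 and *Tfrc* with 4.93 ± 0.952, which also overlapped, then *Ireb2* with 2.95 ± 0.490 and last *Steap3* with 0.505 ± 0.0757 CPM per kb. In Ctrl IL and in cKO IL, *Hmox1* came directly after ferritin, above *Slc11a1*, at 586 ± 167 and 327 ± 131 CPM per kb. The order of *Hmox1* and *Slc40a1* in the CL hemispheres turned when the length of the principal transcript replaced that of all annotated exons, and so did that of *Tfrc* and *Ireb2* in the IL hemispheres.

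**Figure D1:**
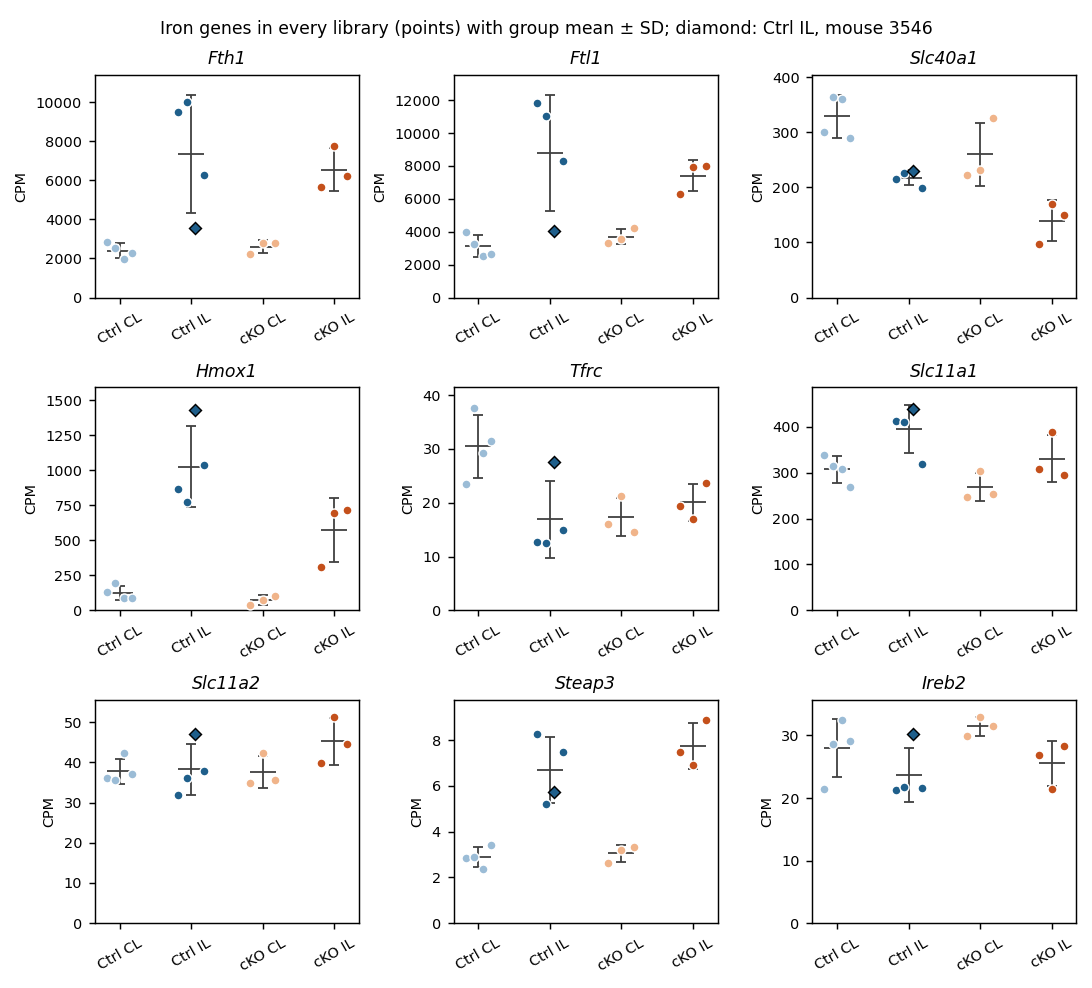
CPM of each of the 9 genes (y axes, linear, from 0) in the 14 libraries (points) by group (x axes), with the group mean and SD as bars. The diamond is the IL library of Ctrl mouse 3546. It lies lowest of its group for Fth1 (3534 CPM) and Ftl1 and highest for Hmox1 (1432 CPM), Tfrc, Ireb2, Slc40a1, Slc11a1 and Slc11a2.

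In Ctrl mice, CD11b+ cells of the injured hemisphere held more *Hmox1*, *Fth1* and *Steap3* transcripts than those of the CL hemisphere. *Hmox1* rose about 8.15-fold in mean CPM, *Fth1* 3.05-fold and *Steap3* 2.32-fold. So 3 of the 9 members were called, all higher in IL, where 6.56% of the 16376 genes tested were called and 3.6% were called higher. The median log2 fold change of the 9 was 0.43, beside -0.04 over all genes tested. Without overlap of the groups, 4 members were higher in IL, where 6.26% of all genes were, and 1 was lower, where 11.4% were. In bulk samples of sorted cells, more cells of a type that expresses a gene and more RNA per cell cannot be told apart.

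The same comparison in cKO mice called *Hmox1*, *Fth1*, *Ftl1* and *Steap3* higher and *Slc40a1* lower in IL. These are 5 of 9 members, where 22.4% of 16757 genes were called, 12.8% higher and 9.52% lower. The median log2 fold change of the members was 0.38, beside 0.02 over all genes tested. Here 4 members were higher in IL without overlap, where 18.1% of all genes were, and 2 were lower, where 24.3% were. The larger share of genes called in cKO than in Ctrl does not show a larger response, and the difference between the genotypes was tested by the interaction given further on.

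*Hmox1* encodes the inducible heme oxygenase, which turns heme into biliverdin, carbon monoxide and free iron (chr8:75093621-75100589, plus strand, GRCm38 as for all positions here). In Ctrl CL it stood at 132, 197, 86.1 and 89.1 CPM in mice 3541, 3545, 3546 and 3551, and in Ctrl IL at 866, 771, 1432 and 1036 CPM in the same mice. In cKO CL it was 38.2, 76.2 and 106 CPM in mice 788, 791 and 3592, and in cKO IL 308, 699 and 713 CPM in mice 784, 791 and 3592. Every IL library lay above every CL library of either genotype. It rose by a log2 fold change of 3.13 (SE 0.307, adjusted p = 0.00057) in Ctrl and 3.05 (SE 0.399, adjusted p = 0.0029) in cKO by limma. Within the 6 mice with both hemispheres, the IL level was 3.93 to 16.6 times the CL level. *Hmox1* had the widest spread between group means of the 9 members, 3.96 on the log2 scale.

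Hemoglobin and erythroid transcripts, which would accompany red blood cells in a sample, were low in most libraries, and their part in the *Hmox1* values was not tested. The summed level of 8 erythroid markers was 36.9 to 132 CPM in Ctrl CL and 15.2 to 180.2 in Ctrl IL, and 105 to 141 in cKO CL and 66.7 to 394 in cKO IL. None of the 5 that were tested was called in any comparison. The lowest erythroid sum of all libraries, 15.2 CPM, was that of Ctrl mouse 3546 in IL, with 1432 CPM of *Hmox1*. The highest, 394 CPM, was that of cKO mouse 791 in IL, with 699 CPM of *Hmox1*. The median log2 fold change of the tested markers was -0.06 between hemispheres in Ctrl and 0.65 in cKO. Between genotypes it was 1.24 in IL and 0.41 in CL. The red cell membrane genes *Slc4a1* and *Epb42* reached at most 0.313 CPM and were at 0 in several libraries, and the hemoglobin gene *Hbb-bs* ranged from 6.03 to 123 CPM. The hemoglobin gene *Hba-a1* was 34.2 to 46.3 CPM in cKO CL and 123, 139 and 15.7 CPM in cKO IL, in mice 784, 791 and 3592.

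*Fth1* encodes the ferritin heavy chain, which oxidises iron for storage (chr19:9980598-9985098, plus strand). Its level was 2846, 2514, 1983 and 2263 CPM in Ctrl CL and 9513, 9993, 3534 and 6298 CPM in Ctrl IL, in mice 3541, 3545, 3546 and 3551. In cKO CL it was 2205, 2780.2 and 2814 CPM, and in cKO IL 5642, 7759.6 and 6217 CPM. The IL libraries lay above the CL libraries in both genotypes, and mouse 3546 showed the smallest rise. The log2 fold change was 1.58 (SE 0.402, adjusted p = 0.046) in Ctrl and 1.41 (SE 0.237, adjusted p = 0.0061) in cKO by limma. The call in Ctrl was close to the threshold. Without the IL library of mouse 3546 the adjusted p was 0.0045, and without any one of the other 7 libraries it lay between 0.060 and 0.134.

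*Ftl1* encodes the ferritin light chain, which helps the iron core form (chr7:45457944-45459884, minus strand). In Ctrl CL it stood at 3998, 3254, 2553 and 2648 CPM and in Ctrl IL at 11801, 11046, 4049.5 and 8288 CPM, with no overlap but with the IL library of mouse 3546 close above the highest CL library. In cKO CL it was 3344, 3535 and 4218 CPM, and in cKO IL 6307, 7914 and 7989.6 CPM. The log2 fold change of 1.48 (SE 0.419) in Ctrl did not pass the test (adjusted p = 0.067), and that of 1.09 (SE 0.238) in cKO did (adjusted p = 0.015). In Ctrl, *Ftl1* was called without the IL library of mouse 3546 (adjusted p = 0.0068), and under each of the 4 other scalings run (adjusted p from 0.030 to 0.047). In cKO, the call was lost without the CL library of mouse 788 (adjusted p = 0.070), the CL library of mouse 791 (0.0513) or the IL library of mouse 791 (0.057). Within mice, *Ftl1* was higher in IL in 6 of 6, by 1.59 to 3.39 times, and *Fth1* in 6 of 6, by 1.78 to 3.97 times.

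A near-identical gene shares the *Ftl1* reads. *Ftl1-ps1*, named as a pseudogene but annotated as protein coding (chr13:74399694-74407346, plus strand), matched the *Ftl1* transcript with 99.6% identity over 910 bases, and its hairpin letters are those printed for *Ftl1*. It carried 2931 to 15160 CPM, so more reads were assigned to it than to *Ftl1* in each library. How the reads were divided between both genes is not given in the sources used here, so the level of either alone is uncertain. With 7 copies of *Ftl1* summed into it, the level was 6964 ± 1689 CPM in Ctrl CL, 19796 ± 8185 in Ctrl IL, 8340 ± 958 in cKO CL and 16811 ± 2210 in cKO IL. The summed log2 fold change between IL and CL was 1.49 (adjusted p = 0.082) in Ctrl and 1.09 (adjusted p = 0.04985) in cKO, close to those of *Ftl1* alone. The only *Fth1* copy over 90% identity, *Gm6977*, carried 7.97 to 50.6 CPM, and adding it left the *Fth1* log2 fold change in Ctrl at 1.58.

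**Figure D2:**
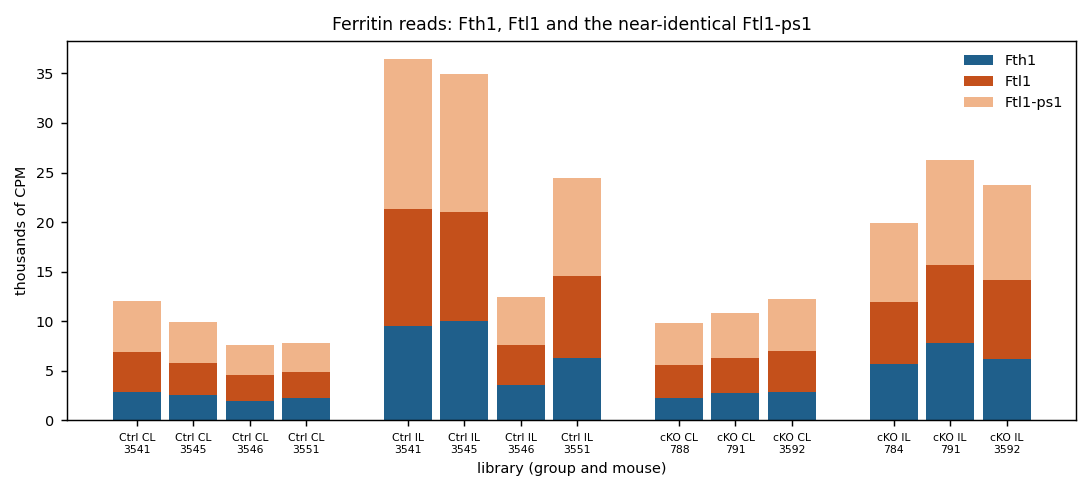
CPM of Fth1, Ftl1 and Ftl1-ps1 stacked (y axis, units of 1000 CPM, from 0) in each of the 14 libraries (x axis, group and mouse). All IL bars stand above all CL bars, that of Ctrl mouse 3546 only just, and Ftl1-ps1 is the largest part of each bar.

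Both ferritin subunits together took 0.551 ± 0.103% of assigned reads in Ctrl CL and 1.61 ± 0.649% in Ctrl IL (SD, n = 4), and 0.630 ± 0.0742% in cKO CL and 1.39 ± 0.188% in cKO IL (n = 3). With the copies of both genes summed, the share was 0.938 ± 0.204% in Ctrl CL, 2.72 ± 1.12% in Ctrl IL, 1.095 ± 0.123% in cKO CL and 2.34 ± 0.320% in cKO IL, and the exact p-values of IL against CL were the same as those that follow. The IL libraries lay above the CL libraries in both genotypes. The exact two-sided permutation test gave p = 0.0286 in Ctrl, the smallest that 4 against 4 libraries allow, and 0.114 after adjustment over the 4 comparisons. The exact permutation p was 0.1 in cKO, the smallest that 3 against 3 allow. Between the genotypes, the share differed by -0.219 percentage points in IL (exact permutation p = 0.571) and by 0.0784 in CL (exact permutation p = 0.343). Leaving out 1 library moved the IL value from -0.046 without Ctrl mouse 3541 to -0.504 without Ctrl mouse 3546, and the CL value from 0.0417 without cKO mouse 3592 to 0.123 without Ctrl mouse 3541.

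The ratio of *Fth1* to *Ftl1* CPM was 0.779 ± 0.0585 in Ctrl CL, 0.836 ± 0.0652 in Ctrl IL, 0.704 ± 0.0712 in cKO CL and 0.884 ± 0.102 in cKO IL. The difference of the log2 ratio between IL and CL was 0.10 in Ctrl (exact permutation p = 0.229) and 0.33 in cKO (exact permutation p = 0.2), where the CL and IL libraries overlapped and 3 against 3 cannot go below 0.1. With the copies summed, the cKO ratios ran from 0.292 to 0.348 in CL and from 0.357 to 0.420 in IL, without overlap, and the exact permutation p was 0.1. None of the 4 comparisons passed, with adjusted p from 0.305 to 0.514. Leaving out 1 library moved the Ctrl difference from 0.059 without the CL library of mouse 3541 to 0.147 without that of mouse 3551. The cKO difference moved from 0.249 without the IL library of mouse 791 to 0.416 without that of mouse 3592.

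*Slc40a1* encodes ferroportin, the iron exporter (chr1:45908068-45926523, minus strand). Its differences between hemispheres had the opposite sign to those of ferritin. Its level was 301, 365, 361 and 290.2 CPM in Ctrl CL and 214, 226, 229.7 and 199 CPM in Ctrl IL, in mice 3541, 3545, 3546 and 3551, so every IL library lay below every CL library. In cKO CL it was 222, 232 and 325 CPM, and in cKO IL 97.6, 170.1 and 150.5 CPM, again without overlap. The log2 fold change was -0.52 (SE 0.172, adjusted p = 0.111) in Ctrl, which did not pass, and -0.83 (SE 0.221, adjusted p = 0.031) in cKO, which did. The cKO call held without the IL library of mouse 791 (adjusted p = 0.027) and was lost without any other single library, with adjusted p from 0.052 to 0.084. Within mice, the IL level was 0.462 to 0.732 times the CL level, lower in 6 of 6.

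*Tfrc* encodes the transferrin receptor, which brings in transferrin-bound iron (chr16:32608920-32632794, plus strand). Its level was 23.4, 37.7, 29.3 and 31.5 CPM in Ctrl CL and 12.6, 12.5, 27.6 and 14.9 CPM in Ctrl IL, where the library of mouse 3546 lay among the CL values. In cKO CL it was 16.1, 21.3 and 14.6 CPM, and in cKO IL 19.4, 17.1 and 23.7 CPM, with overlap. Between IL and CL the log2 fold change was -0.80 (SE 0.231, adjusted p = 0.071) in Ctrl and 0.29 (SE 0.160, adjusted p = 0.233) in cKO, and neither passed. Without the IL library of mouse 3546 the Ctrl value was -0.99 (adjusted p = 0.013). Within mice, *Tfrc* was lower in IL in 5 of 6 and higher in cKO mouse 3592, by 1.63 times.

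*Steap3* encodes an endosomal reductase that readies transferrin-delivered iron for transport out of the endosome (chr1:120190757-120272705, minus strand). It was the lowest of the 9 genes, with 2.84, 2.91, 2.37 and 3.42 CPM in Ctrl CL and 8.28, 5.23, 5.73 and 7.49 CPM in Ctrl IL. In cKO CL it was 2.63, 3.202 and 3.33 CPM, and in cKO IL 7.49, 6.92 and 8.87 CPM. The IL libraries lay above all CL libraries in both genotypes, with log2 fold changes of 1.03 (SE 0.222, adjusted p = 0.024) in Ctrl and 1.18 (SE 0.156, adjusted p = 0.0030) in cKO. In Ctrl the call was lost without the CL library of mouse 3545 or 3546 or the IL library of mouse 3541, 3545 or 3551, with adjusted p from 0.055 to 0.085. Within mice, *Steap3* was higher in IL in 6 of 6, by 1.80 to 2.92 times.

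None of the metal transporters or the regulator passed the test between hemispheres. *Slc11a1*, which pumps divalent metals out of phagosomes, had a mean of 308 ± 29.6 CPM in Ctrl CL and 396 ± 52.3 in Ctrl IL, and 268 ± 30.5 in cKO CL and 331 ± 51.0 in cKO IL. Its IL against CL difference was 0.43 on the log2 scale (SE 0.201, adjusted p = 0.258) in Ctrl and 0.38 (SE 0.157, adjusted p = 0.119) in cKO, and it was higher in IL in 6 of 6 mice, by 1.16 to 1.42 times. *Slc11a2*, the divalent metal transporter of endosomes, ranged from 31.8 to 51.3 CPM over all libraries, with log2 fold changes of 0.08 (95% confidence interval -0.23 to 0.38) in Ctrl and 0.34 (0.02 to 0.66) in cKO, neither of them called. With the mouse as a random effect over all libraries, *Slc11a2* was called higher in IL in cKO (0.38, adjusted p = 0.031). *Ireb2*, the iron-sensing RNA-binding protein IRP2, ranged from 21.4 to 32.9 CPM, with -0.16 (-0.52 to 0.21) in Ctrl and -0.22 (-0.46 to 0.03) in cKO, also not called. In CPM without scaling, *Ireb2* was lower in IL in 6 of 6 mice, at 0.651 to 0.994 times the CL level. For mouse 3541, at 0.994, the scaling factor was 0.845 in IL and 0.930 in CL, so the sign there turns with scaling.

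Comparing hemispheres within mice changed these calls. When each Ctrl mouse was its own block, 7 of 9 members passed in limma, where 20.5% of all genes did. *Ftl1* (adjusted p = 0.00408) and *Slc11a1* (adjusted p = 0.0093) joined those called higher in IL, and *Slc40a1* (adjusted p = 0.0066) and *Tfrc* (adjusted p = 0.036) were called lower. In cKO the block leaves only the 2 mice with both hemispheres to inform the difference, and 3 of 9 members passed, where 13.5% of all genes did. There *Ftl1* (adjusted p = 0.057) and *Slc40a1* (adjusted p = 0.056) were lost.

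**Figure D3:**
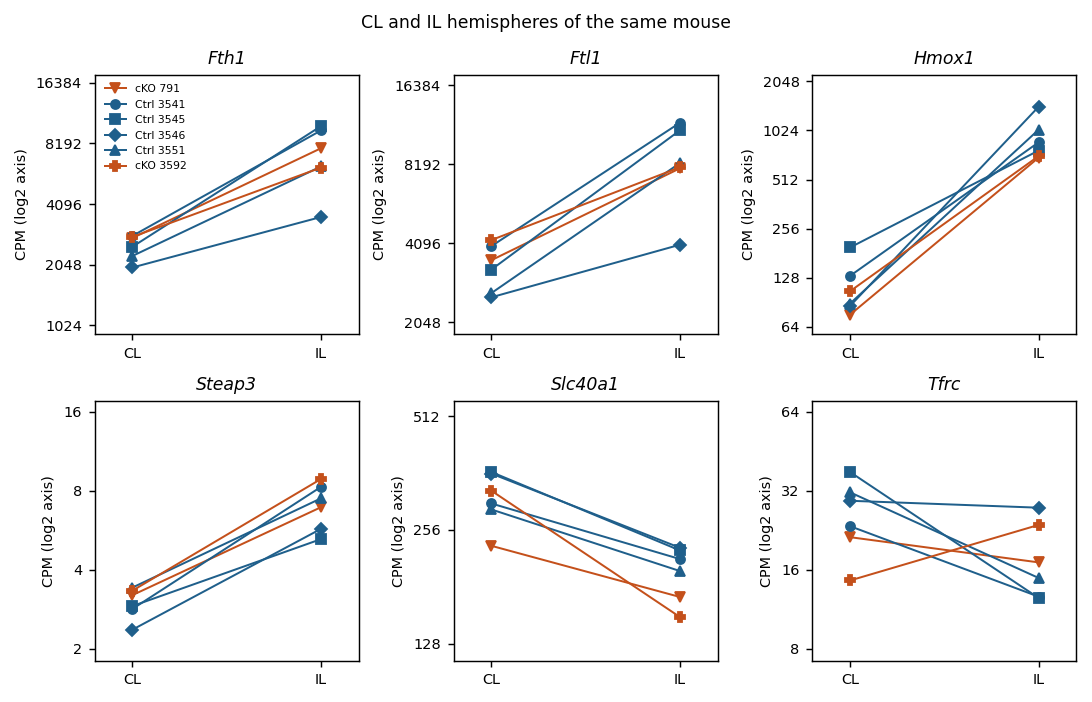
CPM (y axes, log2 scale) in the CL and IL hemispheres (x axes) of the 6 mice that gave both, 1 line a mouse, for 6 of the genes. Every line rises for Fth1, Ftl1, Hmox1 and Steap3 and falls for Slc40a1, and the Tfrc lines fall in 5 of 6 mice.

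Markers of other cells moved along with these IL against CL values. Of 10 markers of infiltrating monocytes, 7 were called higher in IL in each genotype, and their summed level went from 1594 to 4609.9 CPM in Ctrl CL to 5399 to 11170.2 in Ctrl IL and from 1153 to 3707 in cKO CL to 5109.9 to 6646 in cKO IL. Of 10 markers of homeostatic microglia, 7 were called lower in IL in each genotype, with sums of 38786 to 43901 CPM in Ctrl CL, 21300.2 to 26012 in Ctrl IL, 36753 to 40444.5 in cKO CL and 21423 to 23651 in cKO IL. None of these markers was at 0 in a library. Neutrophil markers were called lower in IL in 6 of 10 in cKO and in 0 of 10 in Ctrl, where the Ctrl CL sums spread from 1381 to 8385 CPM and the Ctrl IL sums from 876 to 1432. Among 8 border-associated macrophage markers, 1 was called higher and 2 lower in Ctrl, and 1 higher and 1 lower in cKO. Of 10 genes of the dissociation response, 0 were called in Ctrl and 4 lower in IL in cKO. Their sums did not overlap in either genotype, with 27589.5 to 35779.7 CPM in Ctrl CL, 19339.6 to 21565 in Ctrl IL, 30399 to 42442 in cKO CL and 19831 to 22896 in cKO IL. B cell marker sums were 550.1 to 833 CPM in Ctrl CL, 322 to 349.6 in Ctrl IL, 656 to 756 in cKO CL and 320.4 to 489 in cKO IL, with 1 marker called lower in each genotype. T and NK cell sums were 9.33 to 18.9 CPM in Ctrl CL and 4.36 to 5.80 in Ctrl IL, with 3 of 4 tested markers called lower, and overlapped in cKO with 0 of 6 called. Astrocyte sums were 41.2 to 50.3 CPM in Ctrl CL and 50.4 to 93.5 in Ctrl IL, and overlapped in cKO, with 1 of 6 called higher in each genotype. Endothelial sums overlapped in both genotypes, with 0 of 8 markers called in Ctrl and 1 of 8 called higher in cKO. Their median log2 fold change was -0.54 in Ctrl and 0.21 in cKO. The part of these cells and genes in the iron gene values was not tested.

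Between the genotypes, none of the 9 members passed the test in either hemisphere. In IL, 0 of 9 were called by limma, where 0.658% of 16873 genes were, and 2 of 9 had an unadjusted p under 0.05, where 8.9% of all genes did. In CL, 0 of 9 were called, where 0.875% of 16569 genes were, and 1 of 9 had an unadjusted p under 0.05, where 9.81% did. The median log2 fold change of the 9 was -0.05 in IL and -0.02 in CL, beside 0.01 and -0.05 over all genes tested.

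In IL, *Slc40a1* and *Hmox1* were lower in every cKO library than in every Ctrl library, where 5.48% of all genes tested were. The mean of *Slc40a1* was 139 ± 37.5 CPM in cKO IL and 217 ± 13.7 in Ctrl IL, a log2 fold change of -0.66 (SE 0.201, 95% confidence interval -1.12 to -0.20, adjusted p = 0.290). The mean of *Hmox1* was 573 ± 230.1 CPM in cKO IL and 1026 ± 292 in Ctrl IL, a log2 fold change of -0.88 (SE 0.291, 95% confidence interval -1.55 to -0.22, adjusted p = 0.344). Both differences failed the correction. In CL, where the groups overlapped, the log2 fold change was -0.36 (-0.78 to 0.06, adjusted p = 0.585) for *Slc40a1* and -0.81 (-1.66 to 0.04, adjusted p = 0.534) for *Hmox1*. With 1 library left out, *Hmox1* ran from -1.11 to -0.50 in IL and from -1.105 to -0.43 in CL. *Slc40a1* ran from -0.86 to -0.44 in IL and from -0.51 to -0.27 in CL. Summed monocyte markers were 5109.9 to 6646 CPM in cKO IL and 5399 to 11170.2 in Ctrl IL, with 0 of 10 called, and border-associated macrophage markers were 317 to 665 and 492 to 823 CPM, with 0 of 8 called.

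In CL, *Tfrc* was lower in every cKO library than in every Ctrl library, where 6.04% of all genes tested were. Its mean was 17.3 ± 3.52 CPM in cKO CL and 30.5 ± 5.89 in Ctrl CL, a log2 fold change of -0.79 (SE 0.213, 95% confidence interval -1.26 to -0.32, adjusted p = 0.171). In IL its log2 fold change was 0.31 (-0.18 to 0.80), with means of 20.1 ± 3.37 and 16.9 ± 7.20 CPM. Oligodendrocyte marker sums also did not overlap between the genotypes in CL, with 178 to 221 CPM in cKO and 231 to 326 in Ctrl, and 1 of 7 tested markers was called lower. Neutrophil marker sums overlapped, with 1299 to 2337 CPM in cKO and 1381 to 8385 in Ctrl and 0 of 10 called. Endothelial marker sums overlapped as well, with 91.4 to 166 CPM in cKO and 116 to 277 in Ctrl. Of these 8 markers 0 were called, with a median log2 fold change of -0.61. The part of these cells in the *Tfrc* values was not tested.

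The ferritin genes did not differ beyond their spread between the genotypes. The log2 fold change of *Fth1* was -0.05 (95% confidence interval -1.06 to 0.96) in IL and 0.11 (-0.45 to 0.67) in CL, and that of *Ftl1* was -0.13 (-1.14 to 0.88) and 0.26 (-0.37 to 0.89). These intervals are wide, most of all in IL. *Steap3*, *Slc11a1*, *Slc11a2* and *Ireb2* had log2 fold changes from -0.24 to 0.26 in IL and from -0.20 to 0.17 in CL.

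**Figure D4:**
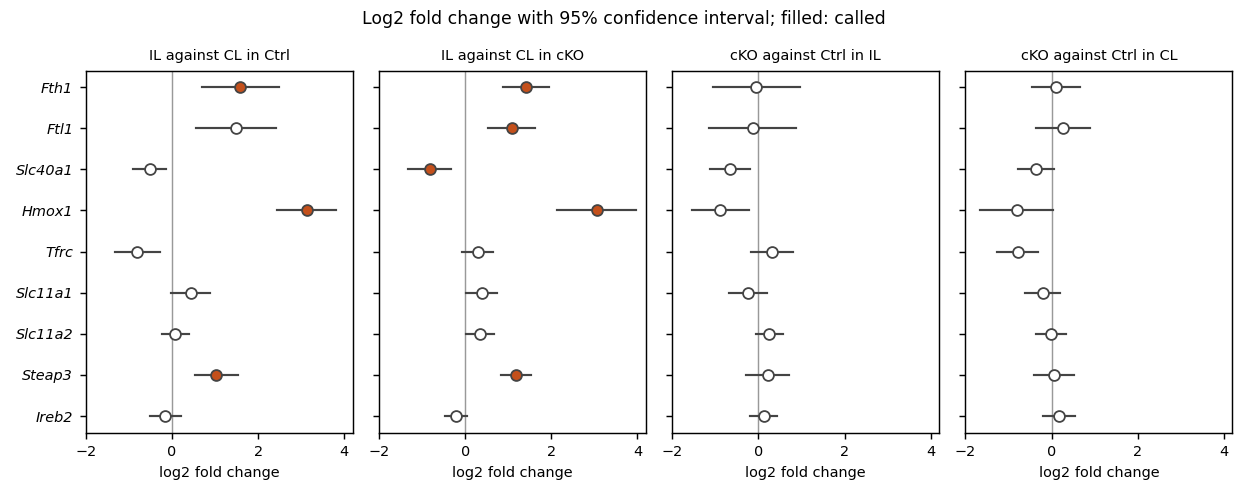
Log2 fold change on the log2(CPM + 1) scale (x axes) of the 9 genes (y axis) in the 4 comparisons, with 95% confidence intervals that are not adjusted for the number of genes. Filled points were called: 3 in Ctrl and 5 in cKO between the hemispheres, and none between the genotypes.

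Whether the hemispheres differed by another amount in cKO than in Ctrl was tested as an interaction of genotype with hemisphere in the 14 libraries together. None of the 9 members was called, and limma called 0 of 18475 genes (0%), of which 481 (2.6%) had an unadjusted p under 0.05. This fit had no term for the mouse. With the mouse as a random effect, 3 of 18475 genes were called and 0 of the members. *Tfrc* had the widest difference of the 9, 1.09 on the log2 scale (SE 0.307, unadjusted p = 0.0030, adjusted p = 0.9999). The difference was -0.08 (95% confidence interval -1.26 to 1.11) for *Hmox1*, -0.17 (-1.29 to 0.96) for *Fth1* and -0.30 (-0.91 to 0.31) for *Slc40a1*.

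Other genes of iron and heme handling were taken from lists of 61 genes in 7 roles, of which 57 were matched in the table and 52 tested in each comparison (between hemispheres in cKO, *Cybrd1* was tested and *Scara5* was not, and the reverse in the others). Between IL and CL, 2 of 52 were called in Ctrl, both higher, and 14 of 52 in cKO, 9 higher and 5 lower, where 6.56% and 22.4% of all genes were called. Between cKO and Ctrl, 1 of 52 was called in IL, lower in cKO, and 0 of 52 in CL, where 0.658% and 0.875% of all genes were called. Their median log2 fold changes were 0.03 and 0.07 between hemispheres in Ctrl and cKO, and -0.13 and -0.17 between genotypes in IL and CL, beside 0.01 and -0.05 over all genes in the last comparisons.

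The heme transporters *Slc48a1*, which moves heme out of the lysosome, and *Flvcr1*, a heme exporter, were the 2 genes called in both genotypes. *Slc48a1* was 69.8, 79.3, 63.4 and 59.4 CPM in Ctrl CL and 261, 223, 215 and 170.6 CPM in Ctrl IL, a log2 fold change of 1.73 (SE 0.234, adjusted p = 0.0026). Among cKO libraries it rose from 52.0, 61.8 and 95.5 CPM in CL to 97.9, 153 and 166 CPM in IL, a log2 fold change of 1.08 (SE 0.241, adjusted p = 0.016). *Flvcr1* rose from 13.8 ± 2.60 to 26.1 ± 4.26 CPM in Ctrl and from 10.5 ± 1.51 to 20.1 ± 4.82 CPM in cKO. *Blvra*, which reduces the biliverdin that heme oxygenase makes, rose in cKO by 0.50 on the log2 scale (adjusted p = 0.019). In Ctrl its difference was 0.55, also without overlap, and did not pass (adjusted p = 0.125). These are 2 of 13 tested genes of heme handling in Ctrl, where 6.56% of all genes were called, and 3 of 13 in cKO, where 22.4% were, all higher.

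Among 10 tested genes of uptake and reduction, none was called between hemispheres in Ctrl. In cKO, *Slc39a14*, a transporter of iron that is not bound to transferrin, rose from 34.5 ± 12.0 to 116 ± 10.3 CPM (log2 fold change 1.85, adjusted p = 0.0018). The siderophore-binding protein gene *Lcn2*, which neutrophils also express, fell from 40.8 ± 26.9 to 11.5 ± 2.81 CPM (-1.48, adjusted p = 0.034), and *Trf*, the transferrin gene, fell from 1860.3 ± 256 to 1208 ± 72.2 CPM (-0.53, adjusted p = 0.048). In Ctrl, their values had the same signs without passing. *Slc39a14* went from 34.0 ± 26.4 to 75.2 ± 27.4 CPM (1.37, adjusted p = 0.053), *Lcn2* from 185 ± 159 to 24.1 ± 19.3 CPM (-2.65, adjusted p = 0.110) and *Trf*, without overlap, from 2389 ± 293 to 1672 ± 197 CPM (-0.44, adjusted p = 0.297). *Hfe*, whose product binds the transferrin receptor, was the only listed gene called between the genotypes. It was 114, 114 and 128 CPM in cKO IL and 161, 158, 209 and 186 CPM in Ctrl IL, without overlap (log2 fold change -0.56, SE 0.0907, adjusted p = 0.037). In CL its log2 fold change was -0.67 (adjusted p = 0.200), also without overlap.

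The remaining calls all lay between IL and CL in cKO, at smaller sizes. They are read against the 22.4% of all genes called there. In heme synthesis, 3 of 9 genes were called, among them *Alad* (0.53) higher and *Ppox* (-0.74) lower on the log2 scale. In mitochondrial iron and iron-sulfur cluster assembly, 3 of 10 were called, among them *Glrx5* (0.60) higher and the mitochondrial iron importer *Slc25a37* (-0.57) lower. Among 5 tested regulators, *Aco1*, the other iron regulatory protein, was higher (0.35) and *Herc2* lower (-0.58). None of the 3 tested storage genes, the ferritin receptor for autophagy *Ncoa4* among them, or of the 2 tested export genes was called in any comparison.

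**Figure D5:**
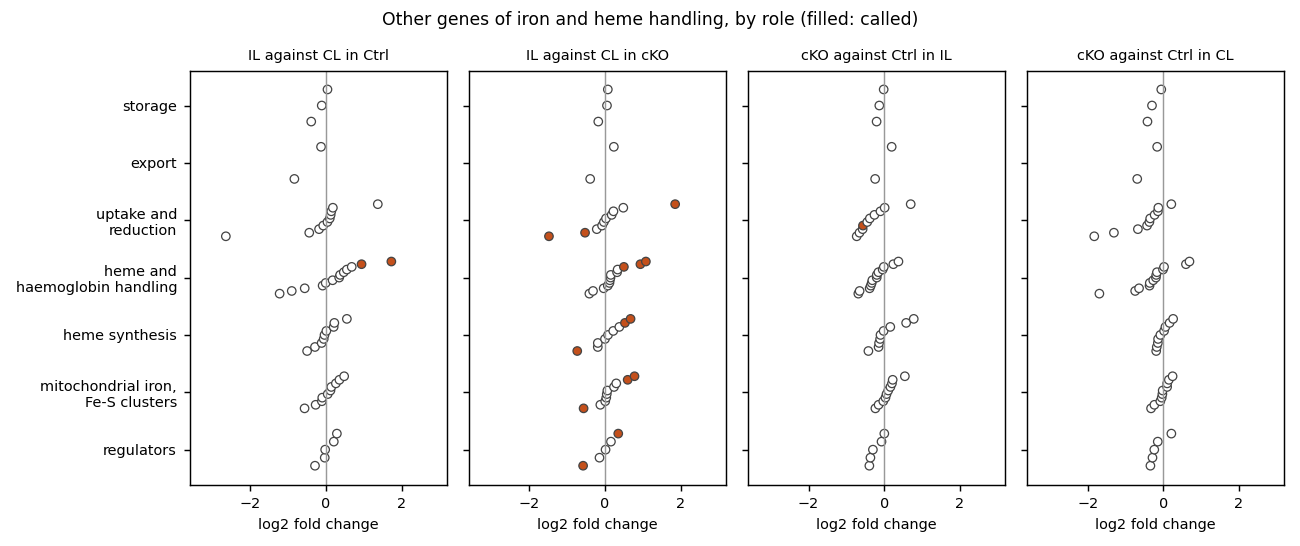
Log2 fold changes (x axes) of the other genes of iron and heme handling, 52 tested in each comparison, by role (y axis, genes of a role ordered by value) in the 4 comparisons. Filled points were called, 2 in Ctrl and 14 in cKO between hemispheres, 1 in IL and none in CL between genotypes.

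For the members with the widest spread between groups, the genes with the most similar levels over the 14 libraries were sought among 9753 genes whose mean log2 value exceeded 3. For *Fth1* these were *Ftl1* (Pearson's r = 0.986), *Gm47428* (0.986) and *Ftl1-ps1* (0.983). *Gm47428* is annotated on the strand opposite to *Ftl1-ps1* (chr13:74404183-74406737), and the library kit does not mark strand, so reads of the overlapping genes cannot be told apart. For *Hmox1* they were the copper transporter gene *Slc31a1* (0.974), *Pitpna* (0.973) and *Stom* (0.970). The libraries share mice and fall into CL and IL groups, so these values only describe the likeness of the levels.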

How the data were processed

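RNA of bead-sorted CD11b+ cells was made into Smart Seq v4 libraries. Per the labels and the study's methods, the authors mapped reads with STAR to mm10 and counted in Partek 8.0. The deposited values, named raw counts, sum to 1e+06 a library and are thus CPM. Whole multiples of 1 read (within 0.03, under 100 reads) made up 75.3% to 81.2% of values, so no test on counts was run. The authors' tables of fold changes and p-values between genotypes were not used.

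Values were divided by factors of the trimmed mean of M-values (TMM, unweighted, 30% and 5% trimmed, over all genes), and log2(CPM + 1) was fitted by limma 3.58.1 (R 4.3.3) with a variance trend for genes with the CPM of 10 reads at median depth in at least the smaller group's number of libraries and 15 reads in total. Adjustment was by Benjamini-Hochberg across the tested genes. The log2 scale understates changes of low genes. Scripts were tested on simulated data. Copies were sought with blastn 2.17.0 (at least 90% identity over 200 bases). Python 3.11.15 with scipy 1.17.1 did the exact permutation tests. Gene models were GENCODE M21.

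The mouse numbers pair hemispheres of the same animal. Deviations from the group means correlated at 0.182 to 0.608 across genes in the 6 mice, and at -0.536 to 0.503 in 19 other pairs, with 0.181 for 784 against 788 and 0.182 for mouse 791. Numbers 784 (IL only) and 788 (CL only) were taken as different mice, as numbered in the labels. Were they 1 animal, there would be 7 mice and 3 cKO pairs, and the blocked cKO values would change. This was not tested. The labels give no batch.

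The members and the lists were chosen with earlier results of these data known. The text names the 9 members, listed genes called in any comparison (up to 4 a role), copies of ferritin genes, and the 3 genes most like each of the 2 members with the widest spread. Alternatives covered scaling, pseudocount, filter, model, threshold, copies and single libraries. The floxed gene and some listed genes are not reported here.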

Additional observations from a re-analysis of the deposited data

Results flagged for a closer look

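Over 26 groups of 4 libraries, the highest or lowest library was set against the others of its group by its gap to the nearest one, as a share of the whole range. Chance passes the 95% limit of Dixon's test in about 1 of 20 groups. Both values past it came from the IL library of Ctrl mouse 3546, which had the fewest reads. *Tfrc* was 27.6 CPM there, while the remaining mice of that group had 12.5 to 14.9 CPM, and the gap was 0.841 of the range. *Ireb2* was 30.2 CPM there, with 21.4 to 21.8 CPM in the others, and the gap was 0.955 of the range.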

How the results depend on the processing

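Of the 9 genes, *Hmox1* was called between hemispheres in both genotypes under every alternative run, and *Fth1* and *Steap3* in cKO. Between IL and CL in Ctrl, 3 members were called. There were 4 with upper-quartile, median-ratio or tested-genes TMM scaling (*Ftl1* gained), 5 on the deposited CPM without scaling (*Ftl1* and *Slc40a1* gained), 1 without a filter on low values, 5 with all 14 libraries in a single fit, 7 with the mouse as a random effect and 7 with the mouse as a replicate block. Leaving out 1 library gave 1 to 5, with 5 without the IL library of mouse 3546 and 1 without the CL library of mouse 3545 or 3546 or the IL library of mouse 3541, 3545 or 3551. In cKO, 5 were called, 4 in the single fit (*Ftl1* lost, adjusted p = 0.121), 6 with the random effect (*Slc11a2* gained, adjusted p = 0.031), 4 at 2-fold, 3 with the replicate block, and 3 to 4 with 1 library left out, with 3 without the CL library of mouse 788 or 791. The block changed no call of the members other than those given in the report. The cause of these shifts was not tested.

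The sign turned only for values near 0. For *Slc11a2* between genotypes in CL it was 0.060 with upper-quartile scaling, 0.0198 with median-ratio scaling and 0.0272 with TMM over the genes tested only, an alternative added after seeing the data, as was summing near-identical copies. With 1 library left out, the log2 fold change between genotypes in IL ran from -0.43 to 0.18 for *Fth1* and from -0.53 to 0.0935 for *Ftl1*. In CL it ran from -0.0178 to 0.25 for *Fth1*, -0.0912 to 0.0446 for *Slc11a2* and -0.0381 to 0.11 for *Steap3*. The interaction ran from -0.56 to 0.0642 for *Fth1*, -0.46 to 0.31 for *Hmox1*, -0.20 to 0.0780 for *Slc11a1* and -0.12 to 0.0321 for *Ireb2*.

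Over all genes, the 1074 calls in Ctrl became 590 without a filter, 554 at 2-fold, 2010 in the single fit, 4256 with the random effect and 3357 with the block. On the deposited CPM, 625 were higher and 814 lower, beside 590 and 484. The 3746 calls in cKO became 822 at 2-fold, 1391 in the single fit and 2261 with the block. On the deposited CPM, 1647 were higher and 2146 lower, beside 2150 and 1596. The 111 calls between genotypes in IL became 69 without a filter and 190 with the random effect, and the 145 in CL became 86 with 10 reads required in every library, 265 in the single fit and 290 with the random effect. With 1 library left out these counts ran from 487 to 1413 in Ctrl, 1881 to 3537 in cKO, 46 to 284 in IL and 70 to 165 in CL, the 284 without the library of mouse 3546. For the interaction, the 0 calls became 3 with the random effect, and 1 without the CL or the IL library of cKO mouse 791. *Steap3* had the lowest level of the members, at 2.37 to 8.87 CPM.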
